A study of Mus musculus with 3 samples.

Results

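NIH3T3 cells, an immortalised mouse embryonic fibroblast line, were profiled after 24 h with 20 µM BMS614 and compared with the same cells labelled as given no compound (None). Each condition was 1 Agilent 8x60K 1-colour array, so every value here is a single difference between 1 array and 1 array, with no replicate and no p-value. The third array of the series held cells given 20 µM AR7 for 24 h and is cited only beside a BMS614 value, since both differences use the same None array. The labels do not say whether the untreated cells received the DMSO in which the compounds were dissolved. Genes were taken where a probe with a RefSeq name was well above background, and free of the scanner's outlier marks, on both the BMS614 and the None array. This left 13602 of the 20660 named genes on the array, through 17435 named probes. With the probes that carry no gene name, 29651 of 55681 probes were kept.

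BMS614 is described by the study as a selective antagonist of retinoic acid receptor alpha (RARα). Retinoic acid receptors sit on DNA as heterodimers with retinoid X receptors. Without ligand, or with an antagonist, they hold corepressors such as NCoR1, which bring in histone deacetylases; with retinoic acid they exchange these for coactivators such as Ep300. RARα signalling is also known as a brake on chaperone-mediated autophagy (CMA), in which Hspa8 carries single cytosolic proteins to LAMP2A on the lysosome. The comparison asks how an antagonist of the receptor alters gene expression in fibroblasts.

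The cells carried the markers of their label. Of 20 fibroblast markers, 17 were bright, meaning a mean log2 signal over both arrays of at least 8, while 0 of 11 epithelial markers were bright. Of 9 endothelial markers 1 was bright, at a signal of 13.15, and of 9 adipocyte markers 2 were bright. Of 9 macrophage markers on the array, 3 were bright (Itgam, Csf1r and Cd14), and the summed linear signal of the 6 measured ones was 25110 on the BMS614 array and 29950 on the None array. The raw signal was somewhat stronger with BMS614, with a 75th percentile of 909 scanner units against 692, and 61.8% against 55.4% of probes lay well above background. The scanner marked 1636 spots on the BMS614 array and 140 on the None array. On BMS614 only 97 of these were marked for the spot itself, the others for the local background around it. All 3 arrays lay on 1 slide and shared 1 scan.

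Few genes differed by much. Over the 9869 named genes with a bright probe, represented by the brightest one, the median log2 difference (BMS614 minus None) was 0.00 and the median size of a difference was 0.07. The 95th percentile of that size was 0.26 and the 99th was 0.41. The measuring error of 1 spot was read from 251 probes printed 10 times on each array. The standard deviation (SD) of their spot differences was 0.11 at a log2 signal of 8 to 9, 0.07 at 9 to 10, 0.06 at 10 to 12 and 0.05 above 12. This SD covers spotting, hybridisation and scanning, and leaves out culture, RNA extraction and labelling.

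A log2 difference of 0.322 or more, in either direction, was used as the limit for a gene and is written as 0.32 from here on. It was passed by 127 of the 9869 genes as higher with BMS614 (1.29%) and by 105 as lower (1.06%), and a gene called higher or lower in the counts that follow passed this limit. At 1.5-fold, over all 17224 bright probes, 34 were higher (0.197%) and 59 lower (0.343%), and only 20 of these 93 carried a gene name, 9 higher and 11 lower. The values on either side of that limit were a log2 difference of 0.585 and one of 0.584. Only 4 named genes differed 2-fold or more, all of them lower: 1700022A21Rik, Fam13c, Tox4 and Rnu1b6.

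**Figure D1:**
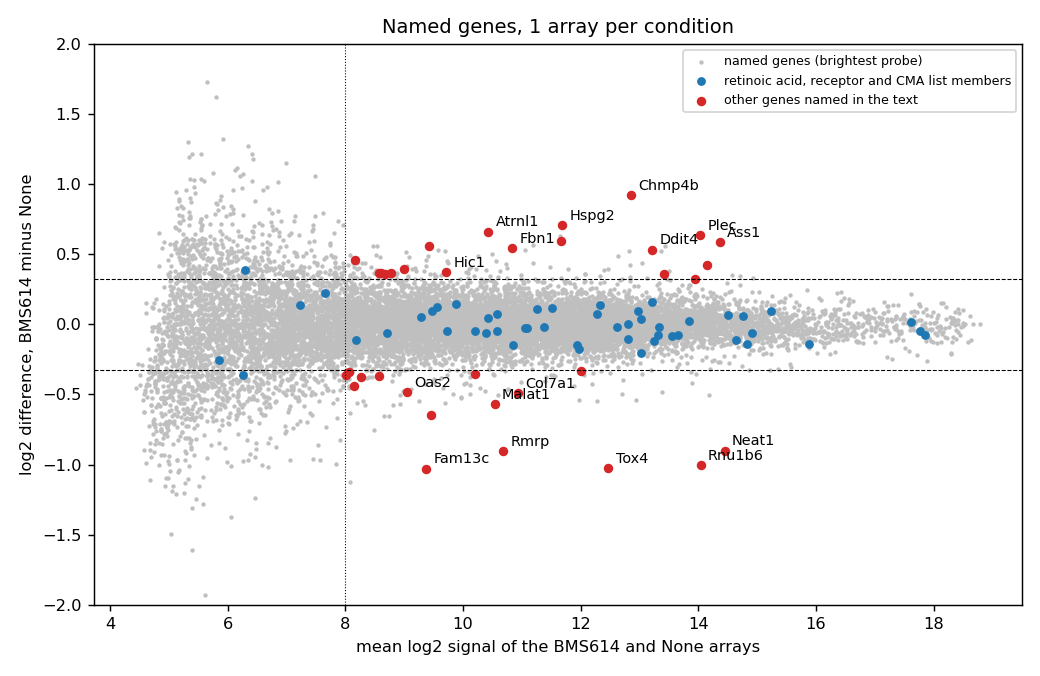
Log2 difference (BMS614 minus None) of each named gene against its mean log2 signal over both arrays, brightest probe, 1 array per condition. Dashed lines mark the limit of 0.32 and the dotted line a signal of 8; 2 dim genes fall outside the plotted range. Blue points, the retinoic acid, receptor and CMA genes, lie close to 0 at bright signal, with Neat1, Rnu1b6 and Rmrp far below and Plec and Ass1 above at high signal.

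A second probe to the same RNA is the nearest thing to a repeat on these arrays. For 1869 genes with 2 or more bright probes, the differences of the brightest and the next brightest probe correlated with a Pearson r of 0.249 across genes, and 1084 pairs (58.0%) had the same sign. Both probes share the same RNA, labelling and arrays, so this describes agreement of probes and not of samples. Of 18 such genes whose brightest probe passed 0.32, 12 had a next probe of the same sign and 3 had one that passed as well (Ahcy, Ass1 and Trio). In the other genes of the 18, the next probe stayed within the limit or had the other sign.

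**Figure D2:**
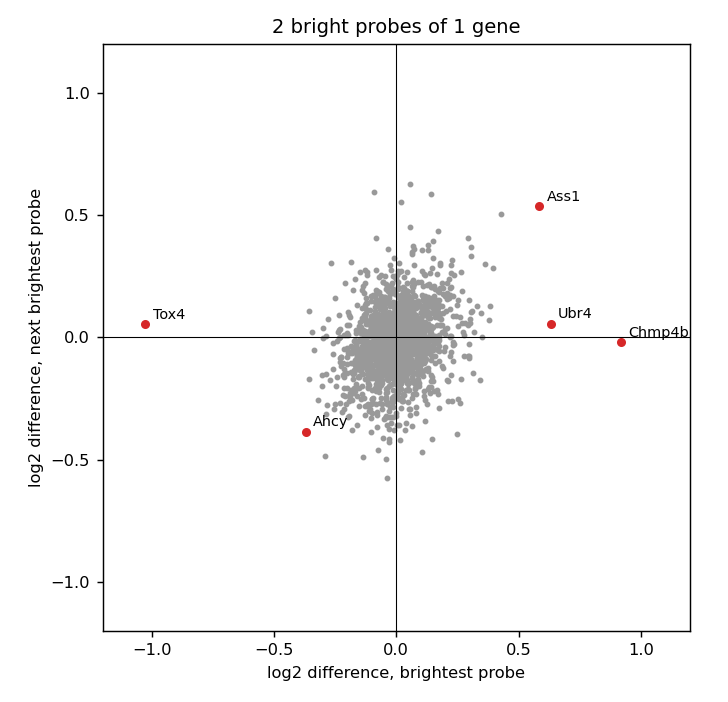
Log2 difference (BMS614 minus None) of the brightest probe against that of the next brightest for the 1869 genes with 2 or more bright probes, 1 point per gene. Ass1 and Ahcy lie on the diagonal, whereas Chmp4b, Tox4 and Ubr4 have 1 probe far from 0 and another near it.

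Neat1, the long noncoding RNA around which nuclear paraspeckles form, was lower with BMS614 in every probe. Its RefSeq-named probe had a log2 signal of 14.90 on None and 14.69 on AR7, and was lower with BMS614 by a difference of -0.90 against a spot SD of 0.05. A further 5 probes that the array design itself labels NEAT1 gave -0.87, -0.85, -0.85, -0.83 and -0.80, the brightest of them reading 14.10 with BMS614, 14.97 in None and 14.74 with AR7. All 6 probes were therefore lower with BMS614 by more than 1.5-fold, and with AR7 they lay between -0.27 and -0.19.

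Malat1, the abundant nuclear-speckle RNA transcribed beside Neat1, was lower too. Its named probe read 10.25 with BMS614, 10.82 in None and 10.56 with AR7, a difference of -0.57 with BMS614. The 3 probes labelled NEAT2, an older name of Malat1, gave -0.60, -0.57 and -0.54. All 4 probes carrying either name were lower by more than 0.32, 1 of them by more than 1.5-fold, and with AR7 they lay between -0.34 and -0.22. Of the 41 genes listed as splicing factors and nuclear RNAs, 35 were bright; Neat1 and Malat1 were the only ones past 0.32, and the list's median was -0.01.

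Several small structured noncoding RNAs were lower in the same array. Rnu1b6, a U1 spliceosomal RNA gene, read 13.54 with BMS614, 14.54 in None and 13.87 with AR7, a difference of -1.01 (spot SD 0.05). Rmrp, the RNA of the RNase MRP complex that processes ribosomal RNA, read 10.23, 11.14 and 10.78, a difference of -0.90 (spot SD 0.06). Rnu2-10, a U2 RNA gene, differed by -0.52, and Rnu3b1, a U3 RNA gene, by -0.50. Rnu12, of the minor spliceosome, was level at 0.03. Of 7 bright genes that RefSeq classes as small nuclear, RNase MRP or ribosomal RNA, 4 were lower and the median was -0.50, against -0.25 with AR7. This class was drawn up after the values had been seen, and U RNA genes have near-identical copies that a probe cannot separate.

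Replication-dependent histone genes, whose messenger RNAs end in a stem-loop in place of a poly(A) tail, lay on the same side. Of 30 bright ones, 6 were above 0, 0 were higher and 4 were lower, with a median of -0.13 for BMS614 and -0.13 for AR7. H1f4, a linker histone, read 13.94 with BMS614 and 14.44 in None (-0.50), and H2bc18 read 12.04 and 12.38 (-0.34). These genes also have near-identical copies, and the class was chosen after the values were seen.

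Several of the higher genes, Plec, Hspg2 and Ubr4 past 1.5-fold among them, have very long messages. Plec, which codes for the cytoskeletal linker plectin, read 14.35 with BMS614, 13.72 in None and 14.02 with AR7, a difference of 0.63 (spot SD 0.05). Hspg2, coding for the basement membrane proteoglycan perlecan, read 12.05, 11.34 and 11.84, a difference of 0.71 (spot SD 0.06), but its second, dim probe gave -0.20 (spot SD 0.30). Ubr4, a ubiquitin ligase of the N-degron pathway, read 11.96, 11.33 and 11.74, a difference of 0.63 that its second bright probe did not repeat (0.06). Fbn1, the microfibril protein fibrillin-1, read 11.12, 10.57 and 10.94, a difference of 0.54 (spot SD 0.06), just under 1.5-fold.

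A list of 62 genes of giant proteins, drawn up from general knowledge after these genes had been seen and therefore no independent evidence, showed how far this went. Of 39 bright members, 35 were above 0, 18 were higher (46.2% of the list, against 1.29% of all bright genes) and 0 were lower. Their median was 0.30, against 0.00 for the other 9830 bright genes. These 18 made up 14.2% of the 127 higher genes. They included Fat1 (0.44), Trrap (0.45), Mycbp2 (0.48), Kmt2c (0.44), Huwe1 (0.38) and Ahnak (0.35), which differ widely in function: an atypical cadherin, an acetyltransferase scaffold, a neuronal ubiquitin ligase, a histone methyltransferase, a second ubiquitin ligase and a membrane-linked scaffold. Of 12 members with 2 or more probes, 7 had every probe above 0, and Syne2, Dst and Vps13b had every probe above 1.2-fold. With AR7 the same 39 genes had a median of 0.24 and 34 were above 0. The None array was the lowest of the 3 arrays in 33 of the 39 (84.6%), against 31.8% of all bright genes.

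Length on the chromosome, which needs no list, was also set against the differences. Among 9692 bright protein-coding genes split into 10 equal groups by genomic span, the group of longest span had a median difference of 0.05, with 46 higher and 6 lower. The group from 4133 to 7404 bp, the second shortest, had a median of -0.02, with 2 higher and 6 lower. The shortest group, from 304 to 4127 bp, broke this order, with a median of 0.00, 20 higher and 16 lower. The medians with AR7 were 0.03 in the longest group and -0.01 in both short ones. Spearman's rho across genes was 0.15 for BMS614, over points that share both arrays. Genomic span includes introns and is only a rough guide to message length. RNA integrity and labelling yield are not among the values used here, and with 1 array per condition a property of an array's RNA and an effect of the compound cannot be told apart.

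**Figure D3:**
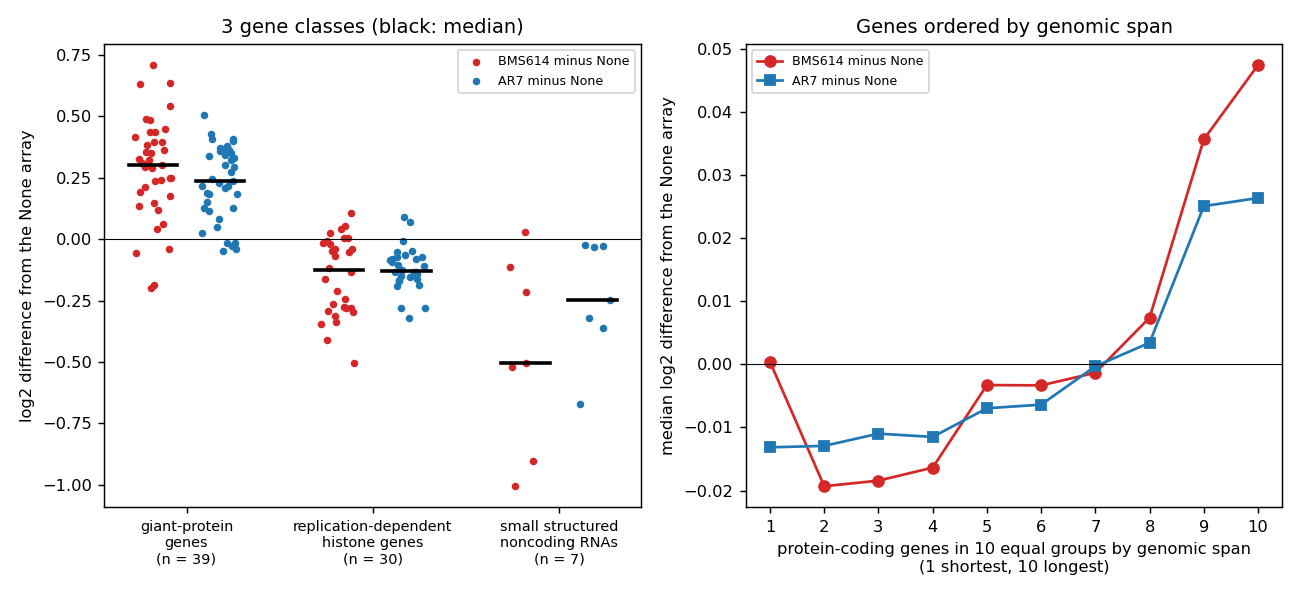
Left, log2 difference from the None array of each bright member of 3 gene classes, BMS614 in red and AR7 in blue, with the median as a black bar; both share the None array. Right, median log2 difference of bright protein-coding genes in 10 equal groups by genomic span, in which the longest group reaches 0.05 with BMS614 and 0.03 with AR7.

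The stricter requirement, that 2 or more different probes of a gene all differ by at least 0.32 in one direction with the brightest probe bright, was met by 10 of 2905 genes. In the higher direction there were 4 (0.138%) and in the lower direction 6 (0.207%).

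Ass1 headed the higher ones. It codes for argininosuccinate synthase, which joins citrulline and aspartate on the way to arginine. Its first probe read 14.66 with BMS614, 14.08 in None and 13.97 with AR7, and its second 13.36, 12.82 and 12.59. The differences were 0.58 and 0.54, each with a spot SD of 0.05, and with AR7 they were -0.11 and -0.24. Both probes were highest on the BMS614 array and lowest on the AR7 array.

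Of the other higher genes, Syngr4, a synaptogyrin of vesicle membranes, gave 0.40 and 0.34, and Sntb1, a syntrophin of the dystrophin complex, gave 0.37 and 0.53, with spot SDs of 0.11 to 0.22.

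The 6 lower genes had smaller differences than Ass1 in their brightest probes. Slc25a37, the mitochondrial iron importer mitoferrin-1, read 11.84 with BMS614, 12.18 in None and 12.23 with AR7 in its bright probe, a difference of -0.33 (spot SD 0.05), and its dim probe gave -0.44. Phf1, a Polycomb-like partner of the PRC2 histone methyltransferase, read 10.03, 10.39 and 10.19, a difference of -0.36 (spot SD 0.06), with -0.68 in a dim probe whose spot SD was 0.30. Ahcy, which clears S-adenosylhomocysteine after methylation reactions, gave -0.37 and -0.39. P4ha1, a catalytic subunit of collagen prolyl 4-hydroxylase, gave -0.36 and -0.50. Csf2rb2, a beta chain of the interleukin-3 receptor with a close paralogue, gave -0.44 and -0.34, and Ano8, an anoctamin, gave -0.38 and -0.32. Each of the last 4 had its brightest probe between a log2 signal of 8 and 9, where the spot SD was 0.11. Under at least 1 other background or scaling setting the brightest probe fell within the limit for Sntb1 (0.26), Syngr4 (0.315), Ahcy (-0.29), P4ha1 (-0.25), Phf1 (-0.29) and Ano8 (-0.27).

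**Figure D4:**
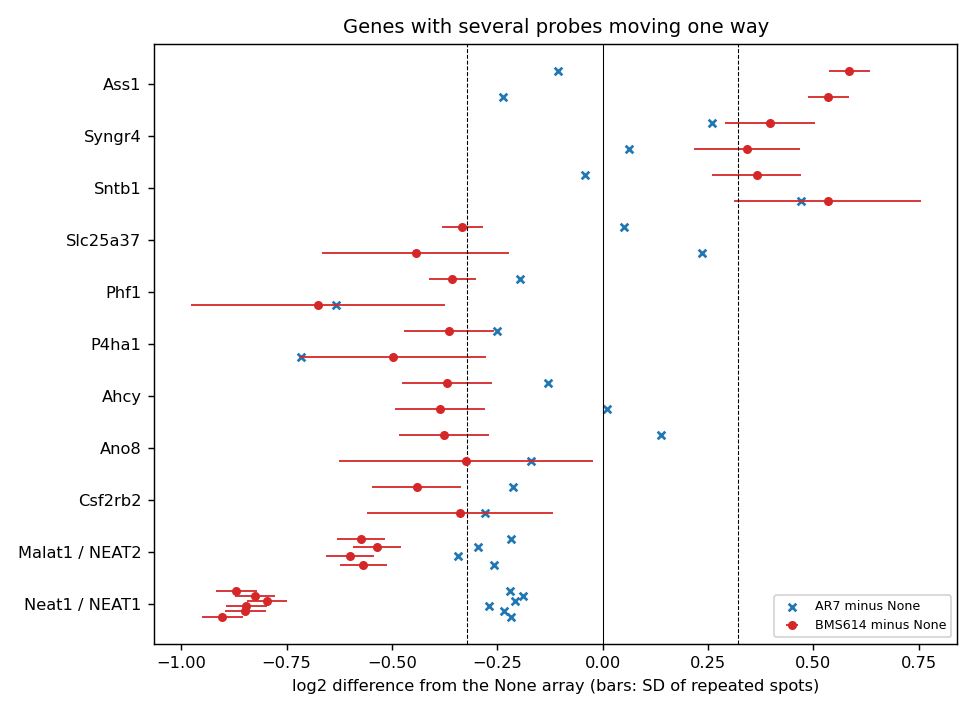
Log2 difference from the None array for each probe of 9 of the 10 genes whose probes all passed 0.32 (dashed lines) in one direction, and of the Malat1 and Neat1 probes, BMS614 in red with the SD of repeated spots and AR7 as blue crosses, 1 array per condition. Ass1 is higher only on the BMS614 array, and the 6 Neat1 probes cluster between -0.90 and -0.80.

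For 5 of these 10 genes RefSeq lists a promoter in GRCm38.p6. The 250 bases upstream of the start were searched on both strands for the hexamers that retinoid receptors bind, AGGTCA and AGTTCA, to set the genes with agreeing probes beside the receptor the compound is aimed at. A hexamer lay in 2 of the 5, Ahcy and Phf1, and in 26.7% of 27025 genes with a listed promoter. Among bright genes it was found in 19.4% of those higher and 27.6% of those lower, against 21.4% of all bright genes. A direct repeat of hexamers 1, 2 or 5 bases apart was found in 0.0378% of bright genes and 0.159% of all genes. None of the 103 higher and none of the 76 lower genes with a listed promoter held one. So rare a repeat would seldom be met in groups of this size, and its absence does not set these genes apart. Ass1 is shown as the gene with the largest agreeing difference, Ahcy and Phf1 for their hexamer, read in the direction of the gene, with the match in capitals, here TGACCT, the reverse complement of AGGTCA. A match of 6 letters is a description only.
Ass1, chr2:31470020-31470269, plus strand: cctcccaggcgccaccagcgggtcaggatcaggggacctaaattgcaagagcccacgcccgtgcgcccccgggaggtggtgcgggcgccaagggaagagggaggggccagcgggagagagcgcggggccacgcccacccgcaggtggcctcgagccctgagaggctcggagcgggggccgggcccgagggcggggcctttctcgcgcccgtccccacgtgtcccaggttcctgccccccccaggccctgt
Ahcy, chr2:155074498-155074747, minus strand: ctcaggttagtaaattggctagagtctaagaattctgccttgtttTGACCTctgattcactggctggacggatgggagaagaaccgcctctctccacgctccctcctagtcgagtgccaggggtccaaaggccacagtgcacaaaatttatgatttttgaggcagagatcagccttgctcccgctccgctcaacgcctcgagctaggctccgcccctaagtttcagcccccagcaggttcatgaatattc
Phf1, chr17:26932877-26933126, plus strand: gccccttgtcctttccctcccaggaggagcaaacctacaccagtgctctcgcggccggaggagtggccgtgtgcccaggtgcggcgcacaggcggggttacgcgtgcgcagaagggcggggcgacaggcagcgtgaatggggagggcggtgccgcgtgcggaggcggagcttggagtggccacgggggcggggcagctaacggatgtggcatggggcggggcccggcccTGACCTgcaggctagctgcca

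Genes that respond to retinoic acid were mostly level. Of 30 listed, 17 were bright; 1 was higher, 0 were lower, 6 were above 0 and the median was -0.03. Hic1, a transcriptional repressor, was the one that passed, with 9.90 on BMS614, 9.53 on None and 9.49 on AR7, a difference of 0.37 (spot SD 0.07) in its single probe, but it fell within the limit under percentile scaling of the processed signal and in the deposited table (0.29 in both). Cyp26b1, which degrades retinoic acid, read 12.31 with BMS614 and 12.23 in None (0.07). Dhrs3, which reduces retinaldehyde to retinol, differed by -0.05, Rdh10, which works the other way, by 0.12, and Stra6, the retinol uptake receptor, by -0.14. The retinoic acid carriers Crabp1 and Crabp2 differed by -0.10 and -0.03. Tgm2, a transglutaminase induced by retinoids in many cells, gave 0.00, and the homeobox genes Hoxa5, Meis1 and Meis2 lay between -0.06 and -0.02. Nrip1, a ligand-dependent corepressor, gave -0.06.

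The genes most used as reporters of retinoic acid signalling could not be compared. Rarb, Cyp26a1, Cyp26c1, Lrat, Hoxb1, Rarres1, Foxa1 and Aldh1a3 were not well above background on either array. Aldh1a2, a retinaldehyde dehydrogenase, was above background only with BMS614, but its readings were level, at 4.61 with BMS614 and 4.62 in None. Zbtb16 was above background only with BMS614, at a log2 signal of 5.28 against 4.83 on None, a difference of 0.44. Spot error is widest there, with an SD of 0.30 below a signal of 6, so no lower bound can be put on the fold. Stra8 (-0.36), Cdx1 (-0.25) and Rarres2 (0.38) were measured below a log2 signal of 7, with spot SDs of 0.22, 0.30 and 0.22.

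The receptors themselves were also near 0 in their brightest probes. Rara, the target, read 13.32 with BMS614 and 13.34 in None in its brightest probe, a difference of -0.02 (spot SD 0.05). Its second probe, also bright, gave -0.33, just past the limit, so the 2 Rara probes disagreed. Rarg differed by 0.07, Rxrb by -0.09, Rxrg by -0.08 and the dim Rxra by 0.14. Of 18 bright receptors and cofactors, 2 were higher, 0 were lower and the median was 0.07. One of these was Ep300, the coactivator and histone acetyltransferase, with 8.39 on BMS614, 7.93 on None and 7.90 on AR7, a difference of 0.46 (spot SD 0.11). Its relative Crebbp differed the other way, by -0.21. Ncor1, the corepressor NCoR1, gave 0.14, and the corepressor subunits Hdac3, Tbl1x, Tbl1xr1 and Gps2 gave -0.05, -0.17, 0.10 and 0.14. The coactivators Ncoa1, Ncoa2, Ncoa3 and Med1 lay between 0.07 and 0.11 in their brightest probes, but a dim second probe of Ncoa3 gave -0.37 (spot SD 0.22) and the mean of its probes was -0.15.

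The CMA genes showed little difference at the level of RNA. Of 18 bright members, 1 was higher, 0 were lower and the median was -0.02. Lamp2, the gene whose A splice form is the CMA receptor, read 13.30 with BMS614, 13.14 in None and 13.37 with AR7, a difference of 0.16 (spot SD 0.05) with 0.10 in a second probe. The array names its probes only by gene, so the splice forms were not separated. Hspa8, the chaperone that recognises CMA substrates, differed by -0.07, with Hsp90aa1 at -0.06, Hsp90ab1 at 0.02 and Dnajb1 at 0.03. Eef1a1, which controls disassembly of the receptor complex, gave -0.04, and its partner Gfap was not above background on either array. Of the signalling arm at the lysosome, Rictor, the defining subunit of mTORC2, was higher by 0.36 (8.85 against 8.49, spot SD 0.11) but by 0.28 with normexp and 0.319 in the deposited table, both within the limit. Akt1 and Akt2 gave -0.11 and -0.07, Mtor 0.05, Rac1 0.09 and the AKT phosphatase Phlpp1 0.23 at dim signal. Ctsa, the protease that cleaves LAMP2A, gave -0.14. Nfatc1 and Nfe2l2, which drive Lamp2 transcription, gave -0.11 and -0.02, and Rab11a and Rab11b, of the recycling endosome, gave -0.02 and -0.12. Psme1, a proteasome activator, gave 0.04.

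Other arms of lysosomal degradation were equally quiet. Of 32 bright macroautophagy genes, 0 passed 0.32 in either direction and the median was 0.01, with Snap29, a fusion SNARE, the highest at 0.316 in a probe whose bright second probe gave -0.14. Of 34 bright lysosomal genes, 0 passed and the median was 0.00, between Galns at -0.28 and Asah1 at 0.19.

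Over 41 gene lists, 28 held no member past 0.32. The 36 lists with 5 or more bright members had medians from -0.12 (circadian clock) to 0.09 (fibroblast markers), beside 0.00 for all bright genes. Those without any member past the limit included cytosolic ribosomal proteins (35 bright), respiratory chain subunits (37), DNA replication genes (41), mitotic genes (38), p53 targets (25), sterol and fatty acid synthesis (26), NRF2 targets (20), chaperones of the heat shock list (23) and TGF-beta signalling (21).

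**Figure D5:**
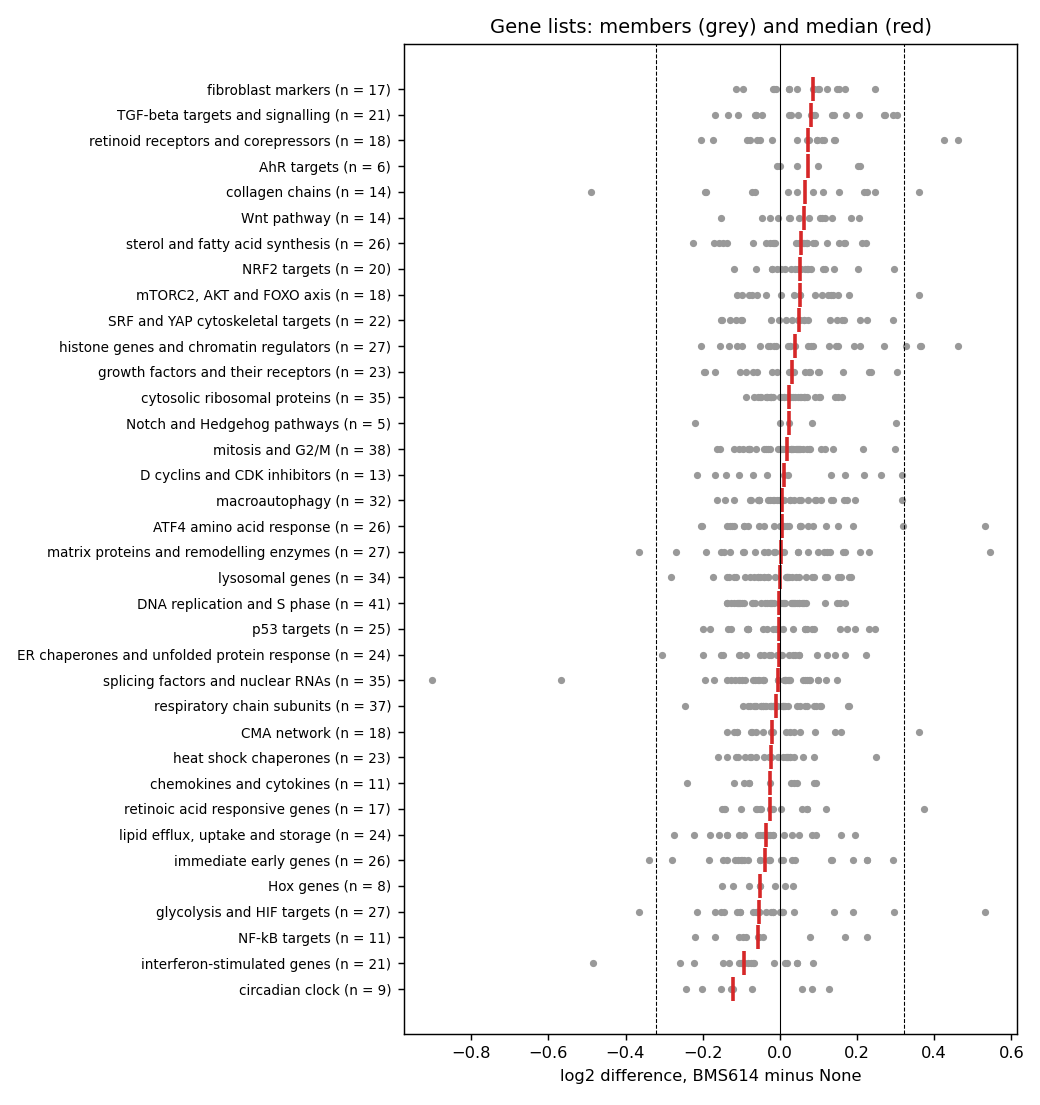
Log2 difference (BMS614 minus None) of each bright member (grey) and the median (red bar) of 36 gene lists with 5 or more bright members; n is the number of bright members and dashed lines mark 0.32. Medians stay between -0.12 and 0.09, with single members such as Neat1, Malat1, Col7a1, Fbn1 and Ddit4 outside the lines.

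Among stress genes, Ddit4 stood apart. Ddit4, or REDD1, restrains mTORC1 under stress and hypoxia. It read 13.49 with BMS614, 12.96 in None and 12.90 with AR7, a difference of 0.53 (spot SD 0.05) in a single probe. It was the 1 gene of 26 bright amino acid response genes to pass. Slc38a2, an amino acid transporter, came nearest to it at 0.319, while Asns and Trib3, standard targets of ATF4, gave -0.12 and -0.20, and the list's median was 0.01. Of 27 bright glycolysis and hypoxia genes, Ddit4 was higher and P4ha1 lower, with a median of -0.05.

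Few matrix genes passed the limit. Of 14 bright collagen chains, Col6a3 was higher (13.59 against 13.23, 0.36) and Col7a1, the anchoring fibril collagen, lower (11.19 in None, -0.49); the median was 0.07. Col6a3 belongs to the giant proteins above, and it fell just within the limit, at 0.320, under percentile scaling of the processed signal. Of 27 bright matrix and remodelling genes, Fbn1 was higher and P4ha1 lower, with a median of 0.00.

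Among the histone genes and chromatin regulators, 4 of 27 bright genes passed the limit, all higher, with a median of 0.04. They were Ep300, H1f0 (0.36), the replacement linker histone, Hdac4 (0.36), a class IIa deacetylase, and Chd4 (0.33), the remodeller of the NuRD complex. H1f0 read 8.79 with BMS614, 8.42 in None and 8.38 with AR7, whereas Hdac4 and Chd4 were lowest on the None array. With normexp, H1f0 (0.29) and Hdac4 (0.28) fell within the limit, and Chd4 did so under percentile scaling of the processed signal (0.28), whereas Ep300 stayed past it at 0.35 or more.

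Interferon-stimulated genes leaned lower, with 5 of 21 bright ones above 0 and a median of -0.09. Oas2, which makes the RNase L activator 2-5A, was the one past the limit, with 8.80 on BMS614, 9.29 on None and 9.04 on AR7, a difference of -0.48 (spot SD 0.07). Ifi35 gave -0.26, and Isg15 and Ifit1 gave -0.10 and -0.08. Of 26 bright immediate early genes, Ier2 alone passed, at -0.34 (7.90 against 8.23, spot SD 0.11) and at -0.26 with normexp, within the limit, with a median of -0.04. Of the muscle markers 1 was bright, Mymk, the myoblast fusion protein myomaker, at 9.70 with BMS614 and 9.14 in None (0.56).

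Single-probe genes past 1.5-fold with a mean log2 signal from 9 up also included Ccdc71, a coiled-coil protein, at 11.96 with BMS614, 11.37 in None and 11.68 with AR7 (0.60), and Pde5a, the cyclic GMP phosphodiesterase, at 9.13, 9.78 and 9.42 (-0.65). The other bright named probes past 1.5-fold were chosen here after their values were seen. On the lower side they were those of 1700022A21Rik (-1.13), Mfap4 (-0.75), Clstn3 (-0.66), Gbp6 (-0.65) and Slc16a12 (-0.63), each with a spot SD of 0.11. On the higher side they were the second probes of Zrsr2 (0.63) and Arfgef2 (0.60). The brightest probes of these 2 genes gave 0.06 and -0.09, so neither gene counted as higher.

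Some of the widest differences were those of 1 probe that another probe of the same gene did not share. Chmp4b, an ESCRT-III subunit that cuts membranes, read 13.31 with BMS614, 12.39 in None and 12.41 with AR7 in its brightest probe, a difference of 0.92, while 2 further probes of nearly equal signal gave -0.02 and 0.02. Tox4, an HMG-box protein, gave -1.03 in one probe and 0.05 in another. Fam13c gave -1.03 and 0.00, and Atrnl1 gave 0.66 and -0.04. These probes exceeded their spot SD many times over, and the disagreement between probes was not tested further.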

How the data were processed

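The deposited scanner files, written by Feature Extraction 10.7.3.1, hold spot intensity values; per the labels the authors processed them with oligo and RMA, and 0.6 µg of Cy3-labelled RNA was hybridised per array. Here the median intensity of each spot was background-corrected with the RMA model, quantile normalised over the 3 arrays with limma 3.58.1 and log2 transformed. The deposited value table, linear intensity in step with the background-subtracted spots of each array, was an alternative, floored at 16 (medians 67.5 for BMS614, 64.95 for None and 70.7 for AR7). Its lowest values were -9.7 for BMS614, -10.05 for None and -16.4 for AR7, so it does not hold RMA values. Spots with outlier marks or not well above background on either array were left out, and spots of 1 probe were averaged. Names came from RefSeq transcripts (GRCm38.p6), for 27235 of 55681 probes, by accession; 1 gene was represented by its brightest probe. Named genes were those with agreeing probes, single-probe genes past 1.5-fold and a mean log2 signal from 9 up, list members past a log2 difference of 0.32 (brightest probe, mean log2 signal from 8 up; up to 4 for a list and direction), all core list members, and up to 3 disagreeing genes in each direction. Members and lists were chosen with earlier results of these data known. Counting was tested on simulated data. The number of arrays limits the precision. No analysis of probe sequences was made. Some genes that these rules name are not reported here.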

Additional observations from a re-analysis of the deposited data

Results flagged for a closer look

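Among bright probes designed to genomic intervals that carry no gene name, 43 differed by at least 1.5-fold between BMS614 and None, 13 higher and 30 lower, out of 2004 (0.649% and 1.5%), against 0.0747% and 0.0913% of bright named probes. The file gives them no gene name, and whether they lie within named genes was not examined; their positions are in mm9, the build of the array design. They lay in 36 distinct intervals. An interval at chr16:43623175-43624069 held 3 probes, all higher with BMS614 (0.81, 0.74 and 0.69) and with AR7 (0.63, 0.57 and 0.39). An interval at chr19:5801802-5802597 held 2 probes with differences of -0.62 and -0.59. The 250 bases upstream of Malat1 are listed at chr19:5802673-5802922 in GRCm38.p6, so these 2 probes may read Malat1 and need not be a separate locus. The builds differ, and this was not tested. The probe with the lowest value, in chrX:18744367-18853992, read 9.34 with BMS614, 10.73 in None and 11.81 with AR7, and 5 interval probes in all were lower with BMS614 and at least 1.5-fold higher with AR7. These differences have no replicate and were not tested.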

How the results depend on the processing

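With 1 array per condition, neither a pairing of replicates nor leaving one out could be tried. The 93 bright probes past 1.5-fold (34 higher, 59 lower) became 92, 95, 94 and 89 under 75th percentile scaling of the processed signal, RMA background with that scaling, quantile normalisation of the BMS614 and None arrays alone and the deposited table, but 55 (18 higher, 37 lower) with normexp and an offset of 50, which draws ratios towards 0. They numbered 425 at 1.3-fold, 7 at 2-fold, 192 where the mean log2 signal had to reach 7, 39 where it had to reach 10, and 1461 with no minimum. The 10 genes whose probes agreed became 9 and 7 under RMA background with percentile scaling and under percentile scaling of the processed signal, sharing 8 and 3 genes with the 10, 4 with the deposited table (2 shared, Ass1 and Slc25a37) and 1 with normexp (Ass1). They numbered 31 at 1.2-fold, 0 at 1.5-fold and 16 with a brightest probe from 7 up. Keeping spots marked only for their background, an alternative chosen after seeing the data, gave 100 probes and the same 10 genes. All 37 named genes past a log2 difference of 0.32 kept their sign under every alternative run, and 19 of them stayed past it; Fam13c, Tox4, Chmp4b, Hspg2 and Atrnl1 moved most, to -0.51, -0.49, 0.31, 0.26 and 0.31 as means over all probes. List medians ranged from -0.03 to -0.02 for retinoic acid genes, 0.01 to 0.07 for receptors and cofactors, and -0.05 to -0.02 for CMA genes. The cause of the other shifts was not tested. Below a log2 signal of 7 the spot SD was 0.22 or more.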
